A study of Mus musculus with 16 samples.

Results

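The respiratory chain genes examined here encode the nuclear subunits of the mitochondrial electron transport complexes I to IV, followed in mouse cardiac fibroblasts that lost or gained TCF21. They were taken by symbol (Nduf a, b, c, s and v genes, Sdha to Sdhd, Uqcr genes, Cyc1, and Cox4 to Cox8 genes) from 3 tables of normalized counts, and were kept where the mean of some table reached 10. This gave 66 genes of the 19707 listed in any table: 37 of complex I, 4 of complex II, 9 of complex III and 16 of complex IV. ATP synthase genes were not included, because the tables name them differently. Of the 66 genes, 66 were tested after Tcf21 loss in uninjured hearts, 64 after loss in infused hearts and 66 after gain in infused hearts. In the infused loss table Ndufs6 is not listed and Cox8b lay under the minimum mean.

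The respiratory chain passes electrons from NADH (complex I) and succinate (complex II) through ubiquinone to complex III, then through cytochrome c to complex IV, which reduces oxygen. Complexes I, III and IV pump protons on the way, and the gradient drives ATP synthesis. A few core subunits of these 3 complexes are encoded by mitochondrial DNA; all others, and the whole of complex II, come from nuclear genes. Cardiac muscle is among the tissues richest in the chain, and several complex IV subunits have a separate heart and skeletal muscle form, whereas fibroblasts use mainly the common forms. TCF21, whose dose was changed here, is a helix-loop-helix protein that binds DNA and marks the fibroblast lineage of the heart.

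Fibroblasts were sorted by flow cytometry from hearts of mice aged 8 to 12 weeks. Every mouse carried a Rosa26 reporter that makes EGFP once a loxP-flanked stop is removed, and every mouse was given tamoxifen, so controls share both. In the loss arm, Tcf21-MerCreMer:Tcf21-fl mice were compared with Tcf21-MerCreMer mice, in which Cre is driven from Tcf21; there were 3 deleted and 3 control libraries from uninjured hearts, 2 weeks after tamoxifen, and 2 deleted and 3 control libraries after 1 week of infusion with angiotensin II and phenylephrine, agonists that bring about cardiac fibrosis. In the gain arm, Pdgfra-creERT:Col1a1-TCF21 mice (2 libraries) were compared with Pdgfra-creERT mice (3 libraries), where Cre is driven from Pdgfra, after the same infusion. No label says that libraries of a group came from separate mice, and the p-values cover no more than library-to-library spread, which may be technical.

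Normalized counts summed to between 27814940 and 40970391 per library, in 3 tables that were each normalized alone, so levels across tables are set side by side and not tested. Tcf21 lay at 1244 to 1718 in deleted against 7507 to 8081 in control libraries without injury, at 185 to 258 against 1509.8 to 2814 after infusion, and at 13502 to 14819.6 in gain against 5145 to 6235 in control libraries. The 9 fibroblast markers (among them Pdgfra, Col1a1 and Dcn) were all listed above 0 and summed to 2934952 to 4583378 per library, whereas cardiomyocyte markers (11 of 12 listed without injury, 12 of 12 with infusion) summed to 553 to 1091, with at most 1 at 0 in a library. In such bulk samples, fewer cells of a type and less RNA per cell cannot be told apart. The counting is not stated to use strand, and many genes of the chain have near-identical processed pseudogenes. GENCODE vM21 holds Uqcrh-ps1 and Uqcrh-ps2 under names derived from a gene of the chain, and neither is listed in the 3 tables. Reads shared with such copies or with overlapping genes could move single values.

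Complex IV held both the most and the least abundant genes of the chain in control fibroblasts. Per kilobase of transcript, Cox6a1, Cox4i1, Cox8a and Cox6b1, common forms of complex IV subunits, took the first 4 ranks in each of the 3 tables. In uninjured controls Cox6a1 lay at 9394 ± 684 normalized counts per kilobase, Cox4i1 at 8817 ± 502, Cox8a at 8147 ± 252 and Cox6b1 at 6810 ± 189 (SD, n = 3). Cox6a1 lay above Cox4i1 in each of the 3 uninjured control libraries. In the infused tables Cox4i1 ranked above Cox6a1. The muscle or tissue-restricted forms were the lowest: Cox4i2 lay at 376 ± 29.0 per kilobase, Cox7a1 at 151 ± 26.5, Cox8b at 112 ± 23.9, Cox6b2 at 95.9 ± 18.2 and Cox6a2 at 37.6 ± 2.44. The median per kilobase was 2378 over 36 complex I genes, 3189 over the 4 complex II genes, 3262 over the 9 complex III genes and 2330 over the 16 complex IV genes. Transcript length was not matched for Ndufb1, which has no per-kilobase value.

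**Figure D1:**
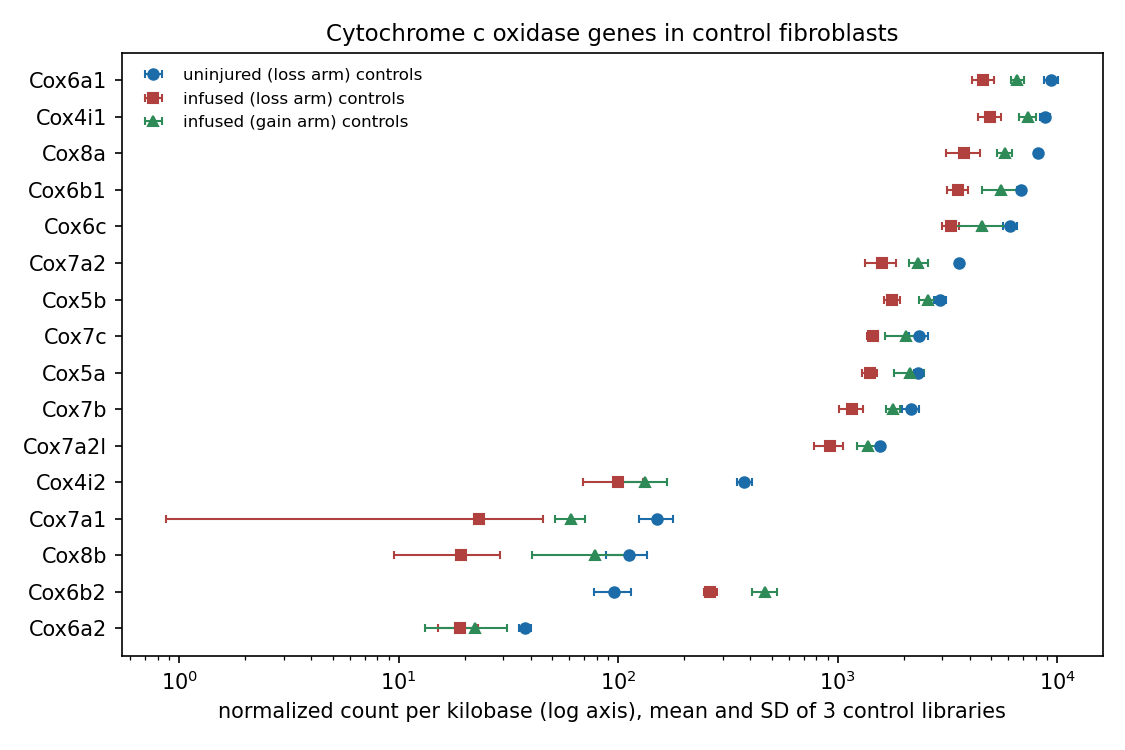
Normalized count per kilobase (log axis) of the 16 complex IV genes in the control libraries of each table, as mean and SD of 3 libraries. Common forms such as Cox6a1 and Cox4i1 lie at the top in all 3 tables, and Cox6a2 (37.6 in uninjured controls) lies at the bottom in each.

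Loss of Tcf21 in uninjured hearts was followed by a small rise of single complex I and III genes. Of 66 tested genes, 6 rose, 0 fell and 60 did not pass (limma on log2 values, Benjamini-Hochberg adjusted p below 0.05 over 15544 genes), where 1.63% of all tested genes rose and 1.96% fell. By complex, 4 of 37 complex I genes, 0 of 4 complex II genes, 2 of 9 complex III genes and 0 of 16 complex IV genes rose. The deleted libraries all lay above all control libraries for 39 genes and all below for 1 gene (14.1% and 13.6% of all tested genes); 3.58% of all tested genes passed in either direction. At an unadjusted p below 0.05, 30 genes were higher and 0 lower (10.2% and 11% of all genes). In all, 59 of 66 genes had a log2 fold change above 0, against 48.5% of all tested genes, and their median was 0.19, against -0.012 over all tested genes.

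The 2 genes with the lowest p-values belong to complexes I and III. Ndufa1, a small X-linked accessory subunit of complex I needed for its assembly (chrX:37187588-37191163, minus strand, GRCm38), was at 2339.7, 2436 and 2658 normalized counts after deletion and 1644, 1503 and 1409.8 in controls. No control library reached the lowest deleted library. Its level rose 1.63-fold (2478 ± 163 against 1519 ± 118, SD, n = 3 and 3), with a log2 fold change of 0.71, SE 0.0959 and limma adjusted p = 0.00873.

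Uqcrq, a small subunit of complex III that sits close to the ubiquinone-binding cytochrome b (chr11:53427922-53430831, minus strand), was at 2148, 2084 and 1903 in deleted and 1326, 1200.0 and 1288 in control libraries. These groups too lay fully apart, and Uqcrq rose 1.61-fold (log2 fold change 0.68, SE 0.0929, limma adjusted p = 0.00873). Uqcr11, the smallest subunit of complex III (chr10:80402997-80406830, minus strand), was at 3220.3, 3084 and 3146 against 2413, 2141 and 2146. The 3 deleted libraries were close to each other and above every control, and Uqcr11 rose 1.41-fold (log2 fold change 0.50, SE 0.0829, limma adjusted p = 0.0208).

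Ndufs8, a core subunit of complex I that carries iron-sulfur clusters (chr19:3908863-3912774, minus strand), was at 3106, 3480.2 and 3562 in deleted and 2592, 2382 and 2151 in control libraries, a 1.43-fold rise (log2 fold change 0.51, SE 0.0977, limma adjusted p = 0.0309). Ndufb8, an accessory subunit of the membrane arm of complex I (chr19:44548572-44555440, minus strand), was at 4764, 4986 and 5026 against 4051, 3614 and 3288, a 1.35-fold rise (log2 fold change 0.44, SE 0.0906, limma adjusted p = 0.0395). Ndufb9, also of the membrane arm (chr15:58933756-58939488, plus strand), was at 4243, 4123 and 4401 against 3435, 3483 and 3269.7, a 1.25-fold rise (log2 fold change 0.33, SE 0.0732, limma adjusted p = 0.0486). In all 3 genes the deleted and control libraries did not overlap. Deleted library 3 was the highest of its group in each.

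The count of 6 depended on single libraries. Without control library 2, or without control library 3, limma called 0 of the 66 genes, and 3 rose without control library 1. Without deleted library 2, or without deleted library 3, 3 rose, and without deleted library 1, 6 rose. Without a variance trend in the model 0 rose. Ndufa1, Uqcrq and Uqcr11 were each called in 4 of the 6 fits that left out a library, and Ndufs8, Ndufb8 and Ndufb9 in 1 of 6. The median over the 66 genes lay between 0.17 and 0.23 in these 6 fits.

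**Figure D2:**
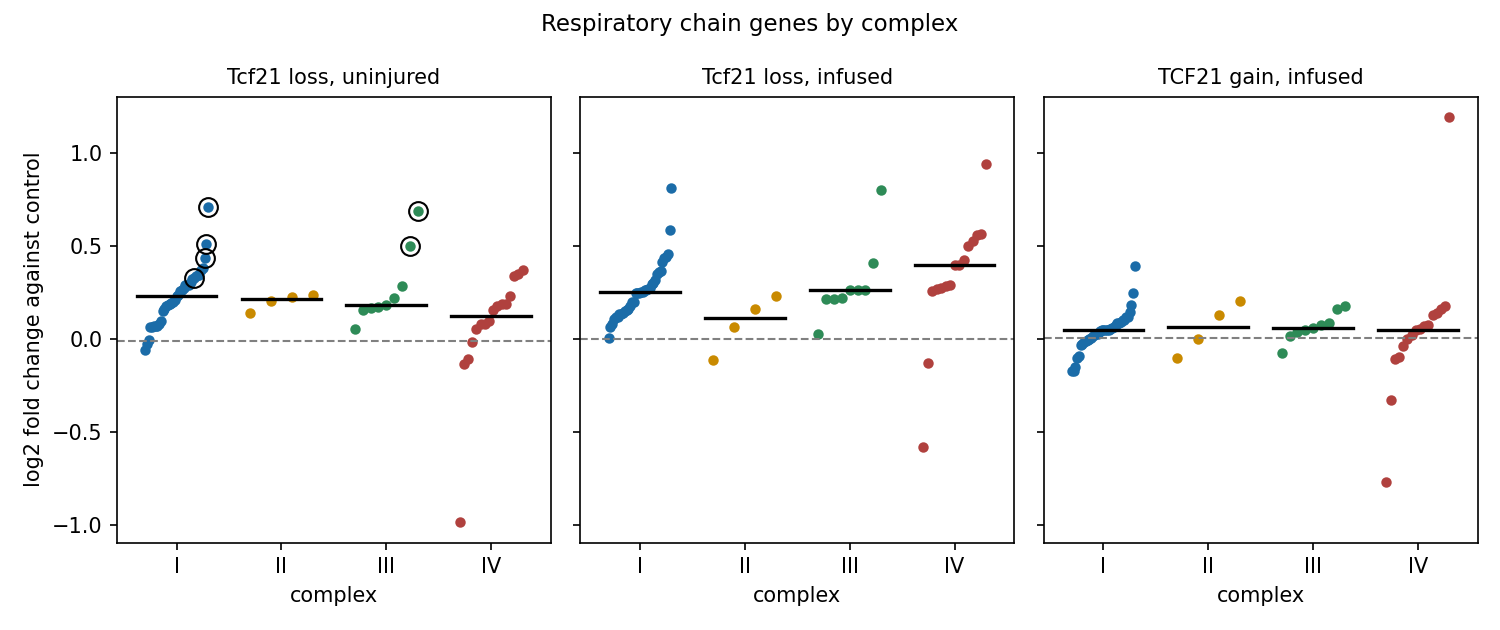
Log2 fold change against control for every tested respiratory chain gene, sorted within complexes I to IV, in the 3 comparisons; black lines are medians by complex, the dashed line is the median over all tested genes, and open circles mark the 6 genes that passed the threshold. In both loss panels most points lie above 0, and in the gain panel the complex medians lie at 0.045 to 0.062.

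Genes that did not pass in uninjured hearts included core subunits of complexes I, II and III. Cox6a1, the most abundant gene of the chain per kilobase in these controls, was at 7147, 6701 and 6583 in deleted and 5813, 5178 and 5101 in control libraries and just missed the threshold (log2 fold change 0.35, limma adjusted p = 0.0522), as did the accessory complex I gene Ndufa7 (0.38, adjusted p = 0.0536) and Cox5b (0.34, adjusted p = 0.0580). The complex I core subunits Ndufs1, its largest iron-sulfur protein, and Ndufv1, which binds NADH, had log2 fold changes of 0.061 (95% interval -0.11 to 0.23) and 0.23 (0.034 to 0.43). Ndufa4, grouped by its symbol with complex I but known as a partner of complex IV, was at 2805, 2340.0 and 2656 against 2229, 2054 and 2079.7 (0.29, adjusted p = 0.122).

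In complex II all 4 genes lay above control, with a median log2 fold change of 0.21, and none passed. The flavoprotein Sdha was at 12947, 14539.7 and 15063 in deleted and 13752, 12838 and 11980.1 in control libraries, which overlapped (log2 fold change 0.14, 95% interval -0.055 to 0.34). The iron-sulfur subunit Sdhb was at 5173, 5078 and 5241 against 4859, 4404 and 4024 (0.23, limma adjusted p = 0.174). For Sdhb and for the membrane anchors Sdhc (0.20, adjusted p = 0.180) and Sdhd (0.23, adjusted p = 0.141), every deleted library lay above every control library.

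In complex III the larger subunits stood behind Uqcrq and Uqcr11. The core protein Uqcrc1 was at 4998, 7419 and 6509.6 against 5980.3, 5749 and 4445 (log2 fold change 0.22, 95% interval -0.14 to 0.58), with the lowest deleted library inside the range of the controls. Uqcrc2 gave 0.16 (-0.009 to 0.34), the Rieske iron-sulfur protein Uqcrfs1 0.18 (-0.07 to 0.43) and cytochrome c1, Cyc1, 0.15 (-0.052 to 0.36). None of these 4 passed the threshold.

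Complex IV had a median of 0.12, with 12 of 16 genes above control, and held the lowest value. Cox8b, a form of subunit 8 found mainly in heart and skeletal muscle, was at 13.3, 22.1 and 25.3 in deleted and 49.1, 39.9 and 32.0 in control libraries, with no overlap (log2 fold change -0.99, unadjusted p = 0.0565, limma adjusted p = 0.250). Cox6a2, the muscle form of subunit 6a, was at 23.9, 24.5 and 21.1 against 27.5, 24.4 and 24.9, and Cox7a2l, a factor of supercomplex assembly, was at 1559.6, 1472 and 1784 against 1755, 1729 and 1697; both overlapped. Cardiomyocyte markers (11 of 12 listed, at most 1 at 0) summed to 620 to 848 in deleted and 758 to 939 in control libraries, and 0 of the 10 tested passed; their part in the Cox8b value was not tested.

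Summed markers of other cell types also differed between the groups in uninjured hearts. Of 8 erythroid and platelet markers, 7 were listed; they summed to 1079, 387 and 201 in deleted and 204, 198 and 191 in control libraries, and at most 3 of them were at 0 in a library. Mural markers (6 of 6 listed, none at 0) summed to 6226 to 8208 in deleted and 10571 to 12245 in control libraries, and 3 of 6 fell. Myeloid markers (7 of 7 listed, none at 0) summed to 1176 to 1889 against 1081 to 1155. Endothelial markers (6 of 6 listed) summed to 158 to 337 against 212 to 266, with 2 or 3 of them at 0 in each deleted library. Deleted library 3, whose erythroid sum lies within the range of the controls, had the highest myeloid sum of any uninjured library, 1889. Its mural sum, 6374, lay below all controls, and 2 of its endothelial markers were at 0. With only deleted library 3 set against the 3 controls, the median over the 66 respiratory chain genes was 0.17. This choice was made after seeing the erythroid sums, and with 1 deleted library the controls alone give the spread. The part of the erythroid, mural, myeloid and endothelial signal in the result was not tested.

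Promoter sequence was set beside these changes, since nuclear respiratory chain genes are textbook targets of NRF1 and of the ETS factor GABP. RefSeq promoter windows (GRCm38.p6, 250 bases before to 50 after the start site) matched 53 of the 66 genes by symbol. The NRF1 motif (GCGCA, any base, then GCGC), on either strand like all motifs here, was present in 11 of the 53 genes (20.8%) against 5.19% of 27025 genes with such a window, and the ETS core CCGGAAG in 11 (20.8%) against 9.93%. The YY1 motif AAGATGG was in 15.1% against 7.28%, the cAMP response motif TGACGTCA in 7.55% against 2.03%, the SP1 motif GGGCGG in 39.6% against 38.2% and TATAAA in 9.43% against 15.7%. The 27025 genes were not limited to the 19707 listed in any table, so genes listed here are set against a wider set. The motifs can overlap each other. NRF1 and ETS motifs were both present in 2 genes, Cox6a1 and Sdhd, and neither was found in 33.

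Among the genes that rose, Ndufa1, Ndufb8, Ndufs8 and Uqcr11 had a window. An ETS core lay in those of Uqcr11, 66 bases before the start, and of Ndufs8, 15 bases past it. No NRF1 or ETS match was found in the windows of Ndufa1 and Ndufb8. The stretches of 30 bases around these matches are shown with those of Cox6a1 and Sdhd, which hold both motifs and did not pass (Cox6a1 has 2 NRF1 matches, of which the nearer to the start is shown); capitals mark the motif, read 5′ to 3′ along the gene, so that an ETS core on the other strand reads CTTCCGG.
Uqcr11 ETS (chr10:80406870-80406899, minus strand): tttctctcctccCCGGAAGtagatgtcaat
Ndufs8 ETS (chr19:3912742-3912771, minus strand): cttaggctccgcCTTCCGGttgaaccgcat
Cox6a1 NRF1 (chr5:115349056-115349085, minus strand): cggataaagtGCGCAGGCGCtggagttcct
Cox6a1 ETS (chr5:115348957-115348986, minus strand): tccccatttccgCTTCCGGcgcgccggtgt
Sdhd NRF1 (chr9:50603909-50603938, minus strand): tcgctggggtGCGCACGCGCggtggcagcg
Sdhd ETS (chr9:50603878-50603907, minus strand): accgtctcctgcCTTCCGGttcacgcttca
These are matches of letters in a window. No binding was measured, and the genes that rose include some with and some without an ETS match.

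After infusion, respiratory chain genes lay above control in nearly all cases in the deleted libraries, and none passed the test. Of 64 tested genes, 0 rose and 0 fell by limma (0.324% and 0.588% of 14799 tested genes did, 0.912% in all). At an unadjusted p below 0.05, 26 were higher and 0 lower (7.27% and 8.78% of all genes). Both deleted libraries lay above all 3 controls for 43 genes and below them for 1, Sdha (17.3% and 17.7% of all genes). A log2 fold change above 0 was found for 61 of 64 genes, against 50% of all genes, and for 36 of 36 in complex I. The median was 0.26, against 0.00017 over all tested genes. By complex it was 0.25 in complex I, 0.11 in complex II, 0.26 in complex III and 0.40 in complex IV.

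Complex IV held the lowest p-value after infusion. Cox6c, a small common subunit (chr15:35925886-35938246, minus strand), was at 2888 and 2943 in the deleted and 2128, 1785 and 2049 in the control libraries. The deleted libraries were nearly equal and above all controls (log2 fold change 0.56, SE 0.104, limma adjusted p = 0.0793). Cox5a, a matrix-side subunit, was at 1233 and 1437 against 976, 830.4 and 900.1 (0.56, adjusted p = 0.105). The common forms Cox7a2 and Cox8a were at 1328 and 1607 against 1135, 849 and 1147 and at 2619 and 2785 against 2416, 1684 and 2119, and in all 4 genes control library 2 was the lowest.

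Uqcrq, which had risen without injury, was at 1335 and 1486 in deleted and 856, 673 and 916 in control libraries after infusion (log2 fold change 0.80, SE 0.151, limma adjusted p = 0.0802). Its groups lay apart in both loss comparisons. Other complex III genes were closer to control: Uqcr11 gave 0.22 (95% interval -0.06 to 0.50), Uqcrc2 0.26 (0.034 to 0.49) and Uqcrc1 0.028 (-0.18 to 0.24).

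In complex I, Ndufc1, a small membrane-arm subunit, had the lowest p-value, at 665 and 769.8 in deleted and 493, 447 and 491 in control libraries (log2 fold change 0.59, limma adjusted p = 0.104). Ndufa12, an accessory subunit of the matrix arm named here after its values were seen, was at 1287 and 1257 against 853, 572 and 781 (0.81, adjusted p = 0.114). Of the genes that had risen without injury, Ndufa1 was at 1184 and 1332 against 949, 979.6 and 1229, with overlap, and Ndufb9 gave 0.10 (95% interval -0.15 to 0.36).

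Complex II had the lowest median of the 4 complexes, and none of its genes passed. Sdha was at 7126 and 7456 in deleted and 7875, 7961 and 7842 in control libraries, the only gene with both deleted libraries below all controls (log2 fold change -0.11, 95% interval -0.32 to 0.088). Sdhc, the anchor with the lowest p-value of complex II, was at 1926 and 2158 against 1738, 1762 and 1724 (0.23, limma adjusted p = 0.294).

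Both deleted libraries lay above the controls, which differed among themselves. Taking each library's log2 difference from the control mean, its median over 64 genes was 0.22 and 0.30 for the deleted libraries and 0.079, -0.11 and 0.044 for controls. Without control library 2, the lowest, the median over the genes was 0.21. Erythroid and platelet markers (6 of 8 listed) summed to 504 and 183 in deleted and 71.1 to 78.6 in control libraries, at most 1 of them at 0, and 1 of 5 tested rose; their part in the result was not tested. Myeloid markers (6 of 7 listed, at most 1 at 0) summed to 399 and 697 in deleted and 715 to 894 in control libraries, and of 5 tested all were lower and 1 fell. Mural markers (6 of 6 listed, none at 0) summed to 4021 and 3121 against 3473 to 4669, with 5 of 6 lower and 0 past the threshold. Cardiomyocyte markers summed to 717 and 634 in deleted and 553 to 739 in control libraries. The part of these markers was not tested either.

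**Figure D3:**
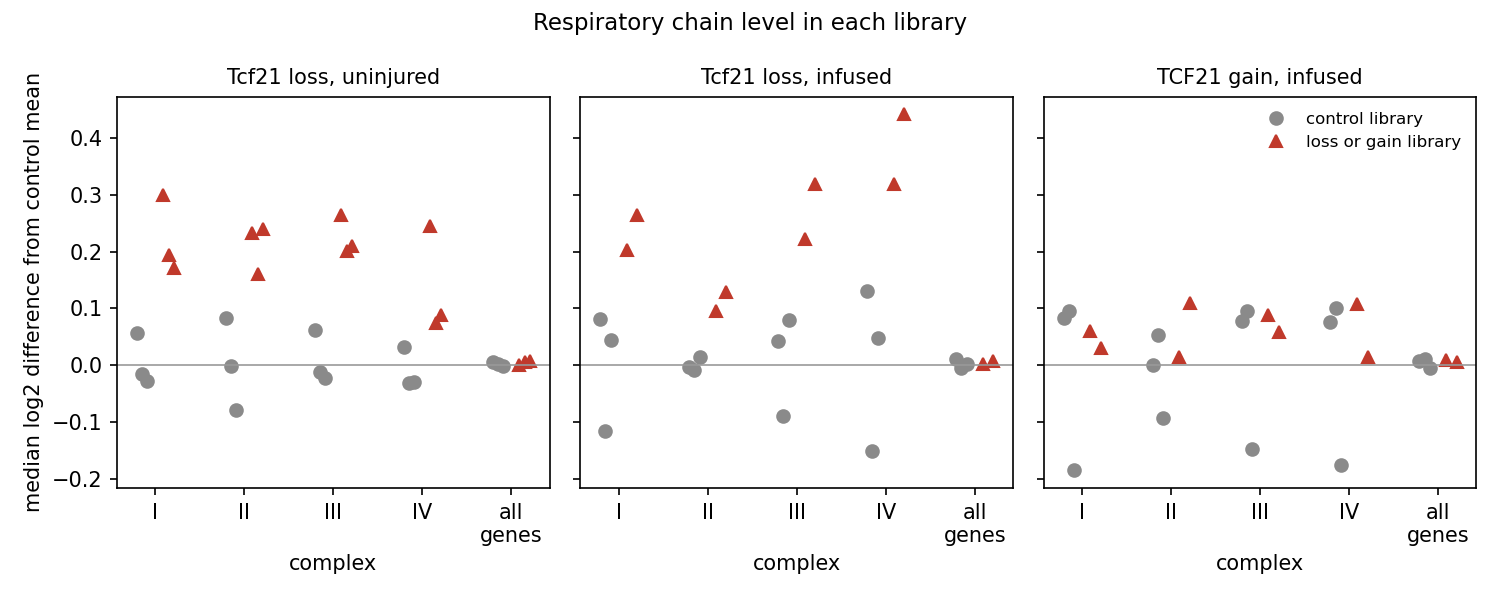
Median over the genes of each complex, and over all tested genes, of the log2 difference from the control mean, 1 point per library (grey circles, control; red triangles, loss or gain). Deleted libraries lie above the controls of every complex in both loss comparisons, and gain control 3 lies lowest of its table (-0.18 over the 66 genes).

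The difference between the loss effects with and without infusion did not pass for any of the 64 genes tested in both (limma interaction contrast, 0.149% of 14130 tested genes passed). At an unadjusted p below 0.05, 7 differences were above 0 and 2 below (5.8% and 5.82% of all genes), and the median difference was 0.042. Cox6c had the lowest p-value: its log2 fold change was 0.077 without and 0.56 with infusion, a difference of 0.48 (SE 0.131, adjusted p = 0.267). Ndufa1 differed the other way, by -0.44 (SE 0.168, adjusted p = 0.378). By complex, the medians of the difference were 0.0076 in I, -0.12 in II, 0.059 in III and 0.20 in IV. Without infused control library 2 the median over all 64 genes was -0.0045. The infused loss and uninjured loss comparisons share no library, and 57 of 64 genes lay above control in both. Of all tested genes, 48.5% lay above control without injury and 50% with infusion. The share of all tested genes above control in both was not computed.

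**Figure D4:**
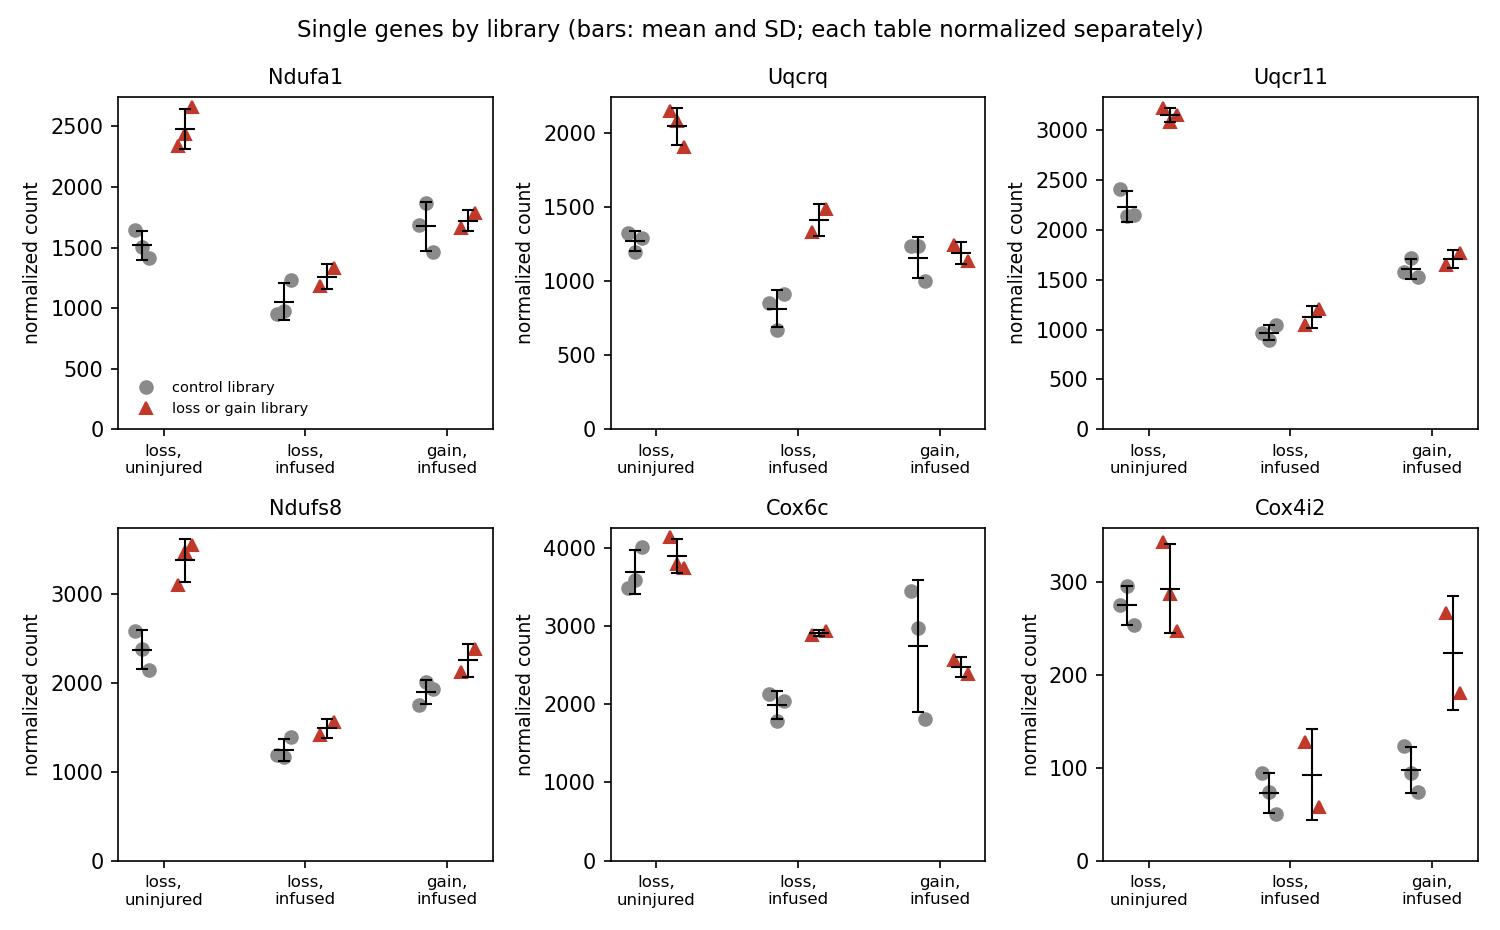
Normalized counts of 6 genes in every library (grey circles, control; red triangles, loss or gain), with mean and SD; each table was normalized separately, so heights compare only within a pair. The pairs that lie apart include Ndufa1, Uqcrq, Uqcr11 and Ndufs8 without injury and Cox6c (2888 and 2943 against 1785 to 2128) and Uqcrq after infusion. They also include Cox4i2 and Ndufs8 with gain of TCF21.

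With gain of TCF21 in infused hearts, no respiratory chain gene passed the test. Of 66 tested genes, 0 rose and 0 fell by limma (1.57% and 2.57% of 15369 tested genes did, 4.14% in all), and 2 were higher and 0 lower at an unadjusted p below 0.05 (8.93% and 11.5% of all genes). Both gain libraries lay above all controls for 12 genes and below for 1, Cox7a1 (19.1% and 20.1% of all genes). A log2 fold change above 0 was found for 46 of 66 genes, against 51% of all genes, and the median was 0.046, against 0.0066 over all genes. It was -0.040 without gain control 3, which lay at -0.18 from the control mean over the 66 genes where the other controls lay at 0.077 and 0.095 and the gain libraries at 0.068 and 0.034.

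Cox4i2, an alternative form of subunit 4 known for induction at low oxygen (chr2:152754173-152765037, plus strand), had the lowest p-value with gain. It was at 266 and 179.9 in gain and 123, 94.6 and 73.9 in control libraries, so the lower gain library still exceeded every control (log2 fold change 1.19, SE 0.297, limma adjusted p = 0.0761). Its common partner Cox4i1 was at 5589.6 and 5185 against 5866, 5817 and 4962, with overlap (-0.039, 95% interval -0.28 to 0.20). Per kilobase, Cox4i2 made up 4.70% and 3.46% of the Cox4i1 and Cox4i2 sum in gain libraries and 2.12%, 1.65% and 1.52% in controls.

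In the other complexes the lowest p-values with gain were those of Ndufs8, Sdhb and Cyc1. Ndufs8 was at 2127 and 2385 in gain and 1753, 2012 and 1937 in control libraries (log2 fold change 0.25, limma adjusted p = 0.230), Sdhb at 4501 and 4666 against 4017, 4254 and 3708 (0.20, adjusted p = 0.263) and Cyc1 at 2879 and 2977 against 2457, 2641 and 2677 (0.18, adjusted p = 0.293). In all 3 the gain libraries lay above the controls. Cox7a1, the muscle form of subunit 7a, was at 12.8 and 17.9 against 27.5, 30.5 and 22.4 (-0.77, adjusted p = 0.365). Fibroblast markers summed to 3021489 and 3268019 in gain and 4294151 to 4583378 in control libraries, erythroid and platelet markers (6 of 8 listed) to 283 and 201 against 72.4 to 134. Mural markers, of cells in which Cox4i2 is also known to be expressed, summed to 2705 and 3009.8 in gain and 2469.9 to 3022 in control libraries (6 of 6 listed, none at 0); 1 of 6 rose and the other 5 were lower without passing, with a median log2 fold change of -0.26. Cardiomyocyte markers summed to 1091 and 1046 in gain and 881 to 919 in control libraries (12 of 12 listed, none at 0); of 11 tested, 1 rose and 7 were lower without passing, with a median of -0.17. Myeloid markers (7 of 7 listed, none at 0) summed to 2183 and 4372 in gain and 1927 to 3093 in control libraries. Of these, 6 were higher and 0 passed, with a median of 0.67. Endothelial markers (6 of 6 listed, none at 0) summed to 676 and 179 against 208 to 377, with 3 higher, 3 lower and 0 past the threshold. The part of all these markers in the gain values was not tested.

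Between infused gain and infused loss, the difference of the 2 effects did not pass for any of 64 genes (limma contrast, 2.93% of 14319 tested genes passed), while 0 were above and 7 below 0 at an unadjusted p below 0.05 (8.11% and 8.16% of all genes). The log2 fold change was higher with loss than with gain for 57 of 64 genes, against 7211 of all 14319 tested genes. The median difference over the 64 genes was -0.19. Uqcrq had the lowest p-value, with a log2 fold change of 0.80 on loss and 0.045 on gain, a difference of -0.76 (SE 0.209, adjusted p = 0.0963). Ndufv3 followed at -0.61 (adjusted p = 0.135) and Ndufa12 at -0.75 (adjusted p = 0.137). Across the 3 comparisons, 42 of 64 genes lay above control in each, and 15 in both losses but not in gain, by the sign of the log2 fold change. The shares of all tested genes with these signs were not computed.

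Alternative forms of complex IV subunits were a small share of their pair in every library. In uninjured hearts Cox4i2 made up 3.32% to 4.36% of its pair per kilobase in deleted and 3.86% to 4.45% in control libraries. Cox8b made up 0.379%, 0.706% and 0.785% of the Cox8a and Cox8b sum in deleted and 1.62%, 1.39% and 1.06% in control libraries, and the groups did not overlap. The share of Cox6a2 was 0.269% to 0.306% against 0.394% to 0.408%. Cox6b2, a form best known from testis, made up 0.749% to 1.74% of its pair in the uninjured table and 6.27% to 8.38% in the controls of the 2 infused tables, but 5.63% and 2.25% in the infused deleted libraries. Cox7a1 made up 3.07% to 6.84% in uninjured deleted and 3.40% to 4.79% in uninjured control libraries, and 1.15% and 1.56% in gain against 2.41% to 2.74% in gain control libraries. The highest level of any of these forms was 343 normalized counts, for Cox4i2.

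Transcript length went with the fold changes in both loss comparisons. The respiratory chain genes are short, with a median transcript of 730 bases (range 360 to 2900) against 2623 over all genes. Across tested genes, Spearman's rho of log2 fold change with length was -0.24 without injury (13974 genes), -0.26 with infusion (13333 genes) and 0.0070 with gain (14003 genes), given as a description, since genes of a library are not independent. Among genes of at most 1000 bases, the median log2 fold change over all genes was 0.096, 0.16 and 0.026 in these comparisons, and that over respiratory chain genes was 0.21 (44 genes), 0.27 (42 genes) and 0.045 (44 genes). With the length trend over all genes removed, the median over respiratory chain genes was 0.11 without injury, where 3 rose, and 0.11 with infusion, where 0 did. By complex the corrected medians were 0.15, 0.14, 0.11 and 0.018 for I to IV without injury and 0.087, -0.0025, 0.11 and 0.22 with infusion. The median difference between gain and loss after infusion was -0.038 with the trend removed.

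**Figure D5:**
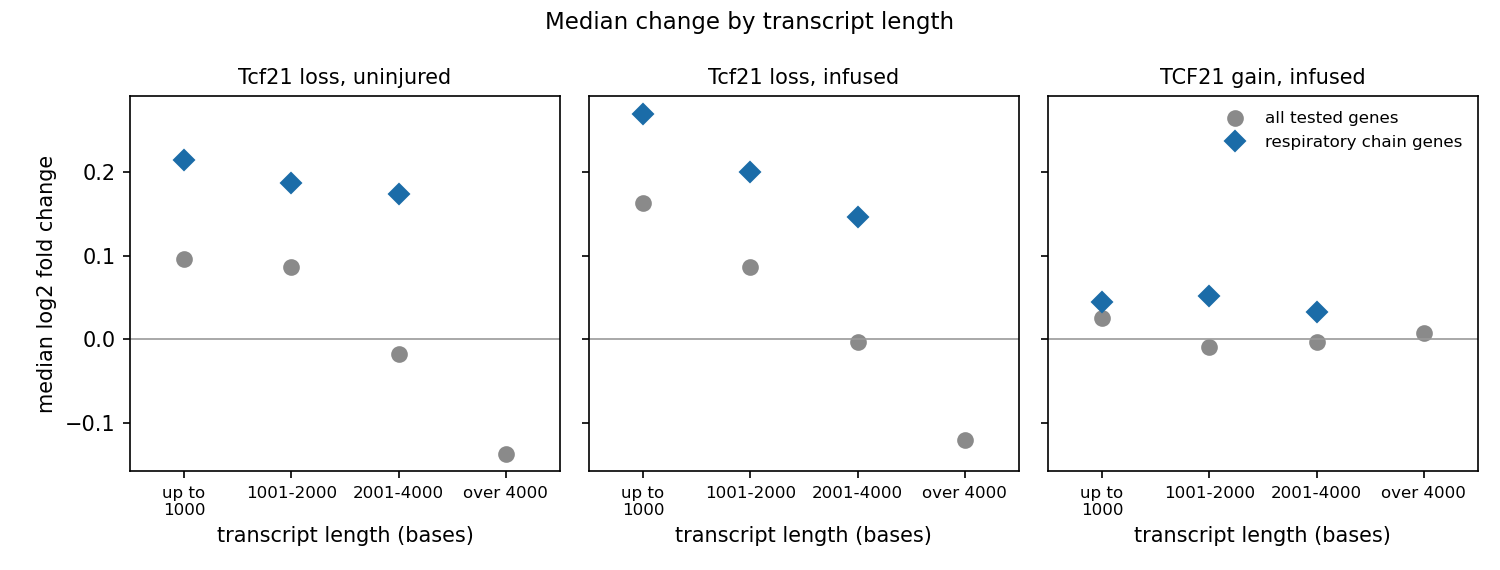
Median log2 fold change by class of transcript length, for all tested genes (grey) and for respiratory chain genes (blue), in the 3 comparisons; no respiratory chain gene is longer than 4000 bases. Among genes up to 1000 bases, the blue points lie at 0.21 and 0.27 in the loss comparisons against 0.096 and 0.16 for all genes.

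Genes that build or regulate the chain were followed by list. Of 15 tested complex I assembly genes, 1 rose without injury, Ndufaf8 (normalized count 789 ± 54.5 against 497 ± 36.6, SD, 3 libraries each, log2 fold change 0.67, limma adjusted p = 0.0287), and 0 fell. After infusion 1 rose, Timmdc1, a membrane factor of early complex I assembly (335 ± 44.8 against 120.0 ± 14.9, SD, 2 and 3 libraries, log2 fold change 1.47, limma adjusted p = 0.0259). Without injury Timmdc1 ranged from 107 to 619 in deleted and from 78.3 to 111 in control libraries, and did not pass (adjusted p = 0.134). Of 21 complex IV assembly genes, 1 rose without injury, Coa5 (5439 ± 328 against 3954 ± 281, log2 fold change 0.46, limma adjusted p = 0.0276), and 0 passed after infusion (19 tested) or with gain (21 tested). Of the 10 complex II and III assembly genes, 0 passed in any comparison. Without injury, after infusion and with gain, 9, 8 and 3 lay above control, against 48.5%, 50% and 51% of all tested genes.

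Regulators of mitochondrial biogenesis went both ways. Of 14 tested, 1 rose and 1 fell without injury. Tfb2m, a factor of mitochondrial transcription, rose (960.4 ± 34.9 against 588 ± 29.6, SD, 3 libraries each, log2 fold change 0.71, limma adjusted p = 0.0146), and Pprc1, a coactivator related to PGC-1alpha, fell (1291 ± 215 against 2187 ± 175, log2 fold change -0.77, limma adjusted p = 0.0223). The median of the list was -0.17, and 11 of 14 lay below control, against 8009 of all 15544 tested genes. Ppargc1a, Nrf1 and Gabpa were looked at after their values were seen. Ppargc1a, which encodes PGC-1alpha, was at 8.89 to 22.5 in deleted and 41.8 to 47.0 in control libraries (log2 fold change -1.63, limma adjusted p = 0.0977). Nrf1 itself gave -0.074 (adjusted p = 0.829) and Gabpa, the ETS subunit of GABP, -0.33 (adjusted p = 0.103). After infusion 0 of 14 passed, and with gain 1 fell, Esrrg, an orphan receptor of oxidative metabolism (97.9 ± 31.4 against 307 ± 55.1, SD, 2 and 3 libraries, log2 fold change -1.66, limma adjusted p = 0.0201). In the infused loss table Tfb2m lay at a mean of 26.7 in controls against 588 and 623 in the controls of the other tables. These calls on single list genes rested on few libraries: with 1 library left out, Tfb2m and Pprc1 passed in 3 of 6 fits and in none that left out a control, Coa5 in 2 of 6, Ndufaf8 in 1 of 6, Timmdc1 in 2 of 5 and Esrrg in 3 of 5. Their adjusted p then reached 0.0985 for Tfb2m, 0.113 for Pprc1, 0.145 for Coa5, 0.136 for Ndufaf8, 0.259 for Timmdc1 and 0.0896 for Esrrg.

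Among other mitochondrial genes, none of the ribosomal protein or citric acid cycle genes passed. Of the mitochondrial ribosomal proteins, 0 of 75, 0 of 74 and 0 of 75 passed in the 3 comparisons, while 59, 67 and 52 lay above control, with medians of 0.10, 0.24 and 0.059. Of 17 citric acid cycle genes 0 passed in each, with 15, 11 and 14 above control and medians of 0.12, 0.049 and 0.050. The shares of all tested genes above control were 48.5%, 50% and 51%. Cytochrome c (Cycs), with the acyl carrier and electron transfer flavoprotein genes, was on a list of 5 of which 0 passed in each; Cycs, named after its values were seen, gave 0.10, 0.56 and 0.43 (limma adjusted p = 0.689, 0.149 and 0.0937). None of the 13 protein genes of mitochondrial DNA is listed in the tables, so the core subunits they encode were not analysed here.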

How the data were processed

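RNA of sorted cardiac fibroblasts was measured in 16 libraries, amplified with a SMART-seq low-input kit per the labels' protocols. The deposited values are a signal that the authors normalized: estimated, non-whole counts, scaled separately in each of 3 tables. The submitters' processing notes name kallisto, DESeq2 and GRCm38, with tool versions and gene models not given in the sources used here. No count model was fitted, and sequencing depth is unknown. Groups came from the sample labels. The genes of the chain and all lists were chosen with earlier results of these data known.

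Genes whose table mean reached 10 were compared as log2(value + 1) by limma 3.58.1 under R 4.3.3, as a linear model with moderated variances that follow the mean. Tests were two-sided, p-values were adjusted by Benjamini-Hochberg over all tested genes, and an adjusted p below 0.05 passed. A fit held the 2 groups compared and no covariate; differences between comparisons were contrasts over 4 groups. Fold changes are on this scale, which understates low genes. Genes described singly are those past the threshold, the gene with the lowest p of each complex and comparison, and a panel of core subunits and isoforms; Ndufa7, Ndufa12, Ndufv3 and Cox6b2 were added after their values were seen. Positions and median transcript lengths of protein-coding transcripts are from GENCODE vM21 (GRCm38), and promoter windows from RefSeq. The fit was tested on simulated data. Alternatives varied the pseudocount, filter, scaling, variance model, library weights, length trend and replicate block, and left out each library in turn.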

Additional observations from a re-analysis of the deposited data

How the results depend on the processing

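In uninjured hearts, 6 respiratory chain genes rose, against 9 with library weights and 0 without a variance trend. With a replicate block 2 rose, with the length trend removed 3, and 0 to 6 when 1 library was left out. None fell in any of these fits. The median log2 fold change over all 66 genes, 0.19, was 0.11 with the length trend removed. After infusion, 0 rose, against 3 with library weights and 6 with a replicate block, and the median of 0.26 was 0.11 with the length trend removed. With gain, 0 rose and 0 fell, against 1 and 1 with the replicate block. The gain median of 0.046 was -0.040 with the block and without gain control 3 (range over left-out libraries -0.040 to 0.094). In both infused arms control 3 has no library of the same number, so the block gives it no weight. The block then leaves very little in these arms to estimate spread from. Its counts there, and in gain minus loss, are given as description only. The cause of the other shifts was not tested. The median difference between the losses, 0.042, was -0.0045 without infused loss control 2 (range -0.0045 to 0.10). For gain minus loss, 0 genes were lower, against 3 with library weights, 3 with the replicate block and 0 to 1 with a library left out, and the median of -0.19 was -0.038 with the length trend removed. Over all tested genes, the counts past the threshold were 557, 135 and 637 in uninjured loss, infused loss and gain, against 94, 72 and 25 without a variance trend, 949, 308 and 1013 with library weights, 227, 1462 and 1842 with the replicate block, and ranges of 88 to 875, 32 to 175 and 118 to 819 with a library left out. For the differences they were 21 (infused minus uninjured loss) and 420 (gain minus loss), against 39 and 780 with library weights, 79 and 901 with the replicate block, 263 for the latter without a variance trend, and 12 to 58 and 156 to 436 with a library left out. Leaving out deleted libraries 1 and 2 in uninjured loss was chosen after seeing the data. It sets 1 deleted library against 3 controls and assumes that this library varies like them, so no count is given. Replicate numbers are shared between groups, but same-numbered libraries did not deviate together in uninjured loss (correlations 0.025, -0.054 and -0.042), so the numbers are not taken as pairs; with 2 shared numbers the correlations were 0.18 and -0.042 in infused loss and 0.095 and 0.062 in gain. Deleted library 1 correlated best with its own number, and deleted libraries 2 and 3 did not. With 2 libraries in an infused group, leaving out 1 assumes that the other varies like the controls. Small groups and unknown depth limit all of these values.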
